A study of Homo sapiens with 12 samples.

Results

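The genes described here are 28 genes of cholesterol synthesis, of its control by sterol regulatory element-binding proteins (SREBPs) and of cholesterol movement inside the cell. They were taken by symbol from the table of read counts, where all 28 were found among 17518 genes, and all 28 were among the 13625 genes that passed the filter on low counts. The RNA-seq libraries come from MUTZ-1 and SKM-1, human lines given in the labels as myelodysplastic syndrome cells from marrow. Each line has 3 libraries with a control short hairpin (sh control in the titles, WT in the genotype field) and 3 with a hairpin against NUDT21 (shNUDT21). NUDT21 encodes a subunit of a cleavage factor that takes part in the choice of poly(A) sites. All knockdown libraries carry the single tag sh1, and whether the cells were a pool or 1 clone is not stated. Separate cultures are not stated for the 3 libraries of a group, so the p-values refer to the spread among the libraries, which may be technical.

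Cells build cholesterol from acetyl-CoA through mevalonate, farnesyl diphosphate, squalene and lanosterol. Transcription of most of these enzymes is driven by SREBP-2, and that of fatty acid enzymes more by SREBP-1. When membrane sterol is low, SCAP escorts the SREBPs from the endoplasmic reticulum to the Golgi, where they are cut to release active factors. When sterol is high, INSIG proteins hold SCAP back. SREBF2 and INSIG1 are themselves SREBP targets. The pathway also feeds protein prenylation and the dolichol and ubiquinone branches.

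The promoters of 3 members are shown because SREBF2 and MSMO1 had some of the largest changes in SKM-1 and HMGCS1 had the largest in MUTZ-1. Each runs from 250 bases before to 50 bases after a RefSeq transcription start (GRCh38.p14), the one listed first where a gene has several. They lie at chr22:41832855-41833154 (plus strand), chr5:43313363-43313662 (minus strand) and chr4:165327419-165327718 (plus strand). Capitals mark CCAAT boxes, which read ATTGG on the other strand, and a sterol regulatory element.
SREBF2: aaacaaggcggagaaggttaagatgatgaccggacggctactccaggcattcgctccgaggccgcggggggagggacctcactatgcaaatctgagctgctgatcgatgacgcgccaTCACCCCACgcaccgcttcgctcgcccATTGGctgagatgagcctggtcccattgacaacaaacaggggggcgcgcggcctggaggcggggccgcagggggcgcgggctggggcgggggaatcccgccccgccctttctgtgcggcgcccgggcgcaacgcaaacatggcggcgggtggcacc
HMGCS1: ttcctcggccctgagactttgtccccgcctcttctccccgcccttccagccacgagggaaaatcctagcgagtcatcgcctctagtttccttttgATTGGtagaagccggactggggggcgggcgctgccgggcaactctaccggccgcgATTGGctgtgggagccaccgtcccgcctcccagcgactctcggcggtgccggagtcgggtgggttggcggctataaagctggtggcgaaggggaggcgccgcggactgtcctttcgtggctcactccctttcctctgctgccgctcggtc
MSMO1: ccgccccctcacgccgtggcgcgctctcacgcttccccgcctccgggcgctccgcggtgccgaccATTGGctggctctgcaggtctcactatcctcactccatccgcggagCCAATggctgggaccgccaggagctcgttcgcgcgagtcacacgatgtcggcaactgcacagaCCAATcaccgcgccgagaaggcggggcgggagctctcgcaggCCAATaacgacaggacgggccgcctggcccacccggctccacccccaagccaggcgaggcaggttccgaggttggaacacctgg
RefSeq windows were found for 25 of the 28 genes. The sterol element TCACNCCAC, searched on both strands, was found in the window of SREBF2 alone among the 25, as TCACCCCAC with its first base at position -133 from the start. It stands in the windows of 1.39% of 27305 genes. The overlapping shorter form CACCCCAC was again found in SREBF2 only, against 3.39% of all genes. CCAAT, searched on both strands, had 4 copies in MSMO1 and no fewer in MVK and NSDHL. It was in the windows of 19 of the 25 genes, against 39.7% of all genes. The GC box GGGCGG, also searched on both strands, was in those of 24 of the 25, against 48.3%, and the E-box CACGTG in those of 4, against 8.77%. A gene with several RefSeq starts counts where any of its windows holds the motif, and 7 of the 25 have 2 or 3 windows. The matches describe letters and are no measure of binding.

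Total counts per library ran from 15843012 to 18426619. NUDT21 was lower in all 3 knockdown libraries than in all 3 control libraries of each line, with 46.1% of its control level left in MUTZ-1 and 39.2% in SKM-1. Myeloid markers were sparse. Of 16, 5 reached 1 CPM (counts scaled to the library size) in MUTZ-1 control cells and 6 in SKM-1 control cells, and MPO had no count in either MUTZ-1 group or in SKM-1 knockdown cells. Of 14 B-lineage markers, 13 reached 1 CPM in MUTZ-1, with a summed level of 2877 to 2886 CPM in control and 2514 to 2575 CPM in knockdown libraries. In SKM-1 several lineage lists moved with the knockdown. The sum over 17 erythroid markers was 1928 to 1972 CPM in control and 5680 to 5920 CPM in knockdown libraries, with 16 markers higher, 0 lower and none without a count. The myeloid sum went from 64.4 to 69.0 CPM up to 162 to 174.5 CPM. Of its 9 tested markers 7 rose and 1, CEBPA, fell (0.741 to 0.328 CPM). The sum over 5 epithelial markers, none without a count, went from 374 to 382 CPM up to 764 to 789.5 CPM. The sum over 6 megakaryocyte markers was 45.7 to 49.0 CPM in control and 129 to 131 CPM in knockdown libraries, where GP1BA, PPBP and VWF had no count. GP1BB made most of that sum (30.7 to 124 CPM), and ITGA2B, another of its markers, fell (16.1 to 6.09 CPM). The sum over 6 fibroblast markers, none without a count, went down from 64.7 to 70.9 CPM to 14.1 to 17.2 CPM. Of these 6, 3 fell and 2 rose: COL3A1 made most of the sum (46.2 to 1.75 CPM), while COL1A2 (2.65 to 10.3 CPM) and LUM (0.278 to 1.19 CPM) rose. In MUTZ-1 the erythroid sum was 18.5 to 21.8 CPM in control and 27.2 to 27.8 CPM in knockdown libraries, and HBB, AHSP and EPB42 had no count in either group. The MUTZ-1 myeloid sum was 84.9 to 98.0 CPM in control and 73.5 to 82.4 CPM in knockdown libraries. SPI1 made most of it (79.9 to 69.7 CPM), and of 9 tested markers 5 fell and 0 rose. The median log2 fold change of the genes on a chromosome ran from -0.02 to 0.03 over 23 chromosomes in MUTZ-1, but from -1.08 (chromosome 13) to 0.49 (chromosome 21) in SKM-1. The marker levels leave the labelled identity of both lines in doubt, and whether the SKM-1 control and knockdown libraries hold comparable cells was not tested, so that an effect of the hairpin and such a difference between the cells cannot be told apart. The part of the markers in the sterol gene changes was not tested, and SKM-1 values with the chromosome medians removed are given for some of the genes. In bulk libraries, fewer cells of a type and less RNA per cell cannot be told apart.

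In control cells the pathway was more strongly expressed in SKM-1 than in MUTZ-1. Of the 28 genes, 25 were lower in MUTZ-1 (48.8% of all genes tested were) and 3 were higher (41.4% of all), and the median log2 difference, MUTZ-1 minus SKM-1, was -0.73, against -0.11 over all genes. The largest was of NPC2, the soluble carrier of cholesterol in lysosomes, at 10.9 ± 0.969 CPM in MUTZ-1 and 56.5 ± 1.55 CPM in SKM-1 (SD, n = 3 each). SOAT1, which esterifies cholesterol for storage, went the other way, with 111 ± 2.86 CPM in MUTZ-1 and 32.4 ± 0.417 CPM in SKM-1. PMVK, a kinase of the mevalonate steps, and TM7SF2, a sterol reductase, were the other genes with the higher level in MUTZ-1.

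Levels of different genes were compared per length, in the deposited FPKM (fragments scaled to transcript length and library size). FDPS, which makes farnesyl diphosphate, had the highest level of the 28 in all 4 groups, with 172 and 158 FPKM in MUTZ-1 control and knockdown cells and 223 and 129 FPKM in those of SKM-1. FDFT1, squalene synthase, came next in MUTZ-1 control cells at 94.3 FPKM, and EBP, a sterol isomerase, in SKM-1 control cells at 132 FPKM. STARD4, a cytosolic sterol carrier, was lowest in MUTZ-1 control cells at 4.59 FPKM, SOAT1 in SKM-1 control cells at 4.66 FPKM, and INSIG2 in SKM-1 knockdown cells at 2.63 FPKM. Neighbouring steps could differ widely. In MUTZ-1 control cells PMVK stood at 49.6 FPKM and MVK, the kinase before it, at 7.19 FPKM.

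**Figure D1:**
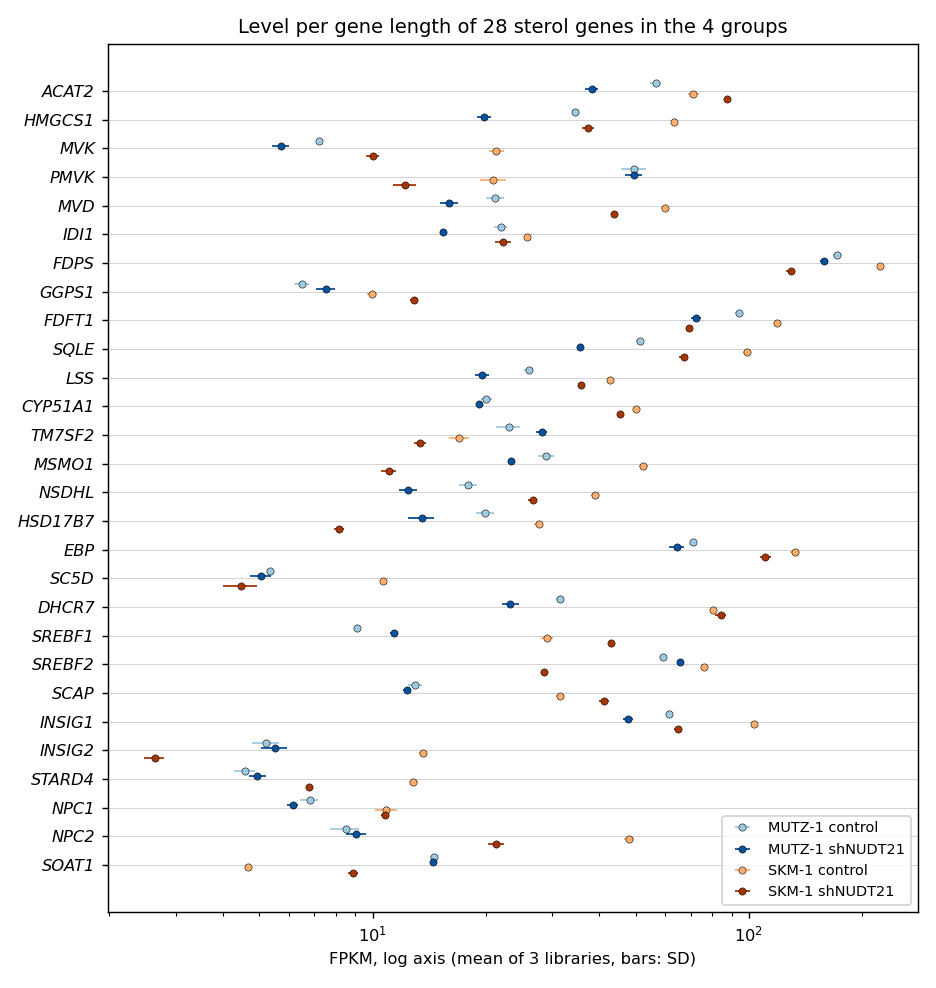
FPKM of each of the 28 genes in pathway order (log axis), as the mean of 3 libraries with the SD as a bar, for the 4 groups. FDPS has the highest value in every group, and INSIG2 in SKM-1 knockdown cells, at 2.63 FPKM, the lowest of all.

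In each line, most of the 28 genes were lower after knockdown. In MUTZ-1, 19 of the 28 genes fell (24.6% of all genes tested fell) and 4 rose (24.4% of all rose), and 5 did not pass the test. The median log2 fold change was -0.20, against 0.00 over all genes. None of the 28 changed 2-fold in MUTZ-1, where 1.64% of all genes fell and 3.11% rose that far. In SKM-1, 20 fell (42.3% of all) and 6 rose (42.1% of all). The median was -0.47, against 0.00 over all genes, and 7 of the 28 fell at least 2-fold (22.5% of all) and 1 rose that far (12.6% of all). With the chromosome medians removed, MVK, NPC2 and SOAT1 no longer reached 2-fold. In both lines 14 genes fell (6.58% of all genes did) and 2 rose (7.72% of all). Of the 14, SC5D lost its MUTZ-1 call in 17 of 21 alternatives. With the chromosome medians removed, NSDHL did not pass the test in SKM-1 and EBP rose there. Among the 19 enzymes alone, 16 fell in MUTZ-1 and 15 in SKM-1, with medians of -0.43 and -0.47. The genes were chosen with these directions already known, so the counts describe the pathway and do not test it.

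**Figure D2:**
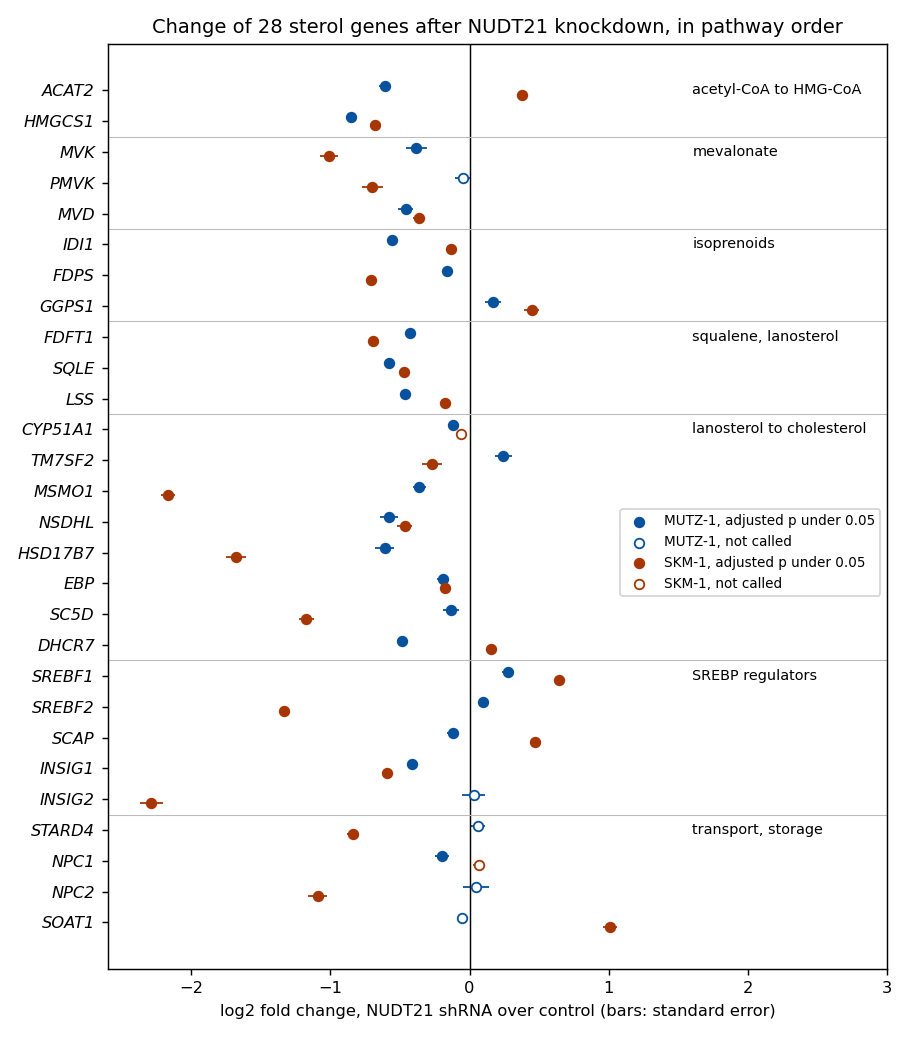
Log2 fold change of each gene after NUDT21 knockdown in MUTZ-1 (blue) and SKM-1 (brown), in pathway order, with the standard error as a bar. Filled points passed an adjusted p of 0.05. Most enzymes lie left of 0 in both lines, while SREBF2, INSIG2, STARD4 and NPC2 lie far left of 0 in SKM-1 and close to 0 in MUTZ-1.

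The first steps, from acetyl-CoA to HMG-CoA, held the largest fall in MUTZ-1. HMGCS1 (chromosome 5, positions 43289395 to 43313512, minus strand), which makes HMG-CoA, was at 231, 228 and 236 CPM in control MUTZ-1 and at 134, 124 and 126 CPM after knockdown. In SKM-1 it was at 388, 386 and 387 CPM in control and 248, 246 and 231 CPM in knockdown libraries. The groups did not overlap in either line, and 55.3% and 62.4% of the control level were left (log2 fold changes -0.85 ± 0.03 and -0.68 ± 0.03 SE, edgeR adjusted p = 3.77e-72 and 2.65e-67). ACAT2 (chromosome 6, positions 159760328 to 159779055, plus strand), which joins acetyl-CoA units, moved apart in the lines. In MUTZ-1 it fell from 106, 111 and 104 to 70.7, 67.2 and 72.7 CPM (-0.61 ± 0.04, edgeR adjusted p = 2.78e-35). In SKM-1 it rose from 119.8, 121 and 128 to 159, 161 and 159 CPM (0.37 ± 0.03, edgeR adjusted p = 1.85e-22). The groups did not overlap in either line. The median of chromosome 6 in SKM-1 was 0.35, and with the chromosome medians removed ACAT2 changed by 0.04 (edgeR adjusted p = 0.311). ACAT2 overlaps SOD2 and TCP1 on the other strand, and the strand setting of the counting is not given.

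The mevalonate kinases fell more in SKM-1. MVK (chromosome 12, positions 109573255 to 109598117, plus strand), mevalonate kinase, was at 20.6, 20.5 and 20.3 CPM in control MUTZ-1 and 16.4, 15.97 and 14.8 CPM after knockdown (-0.38 ± 0.08). In SKM-1 it went from 55.01, 52.9 and 57.9 to 26.9, 28.8 and 26.7 CPM, which left 49.7% (-1.01 ± 0.06, edgeR adjusted p = 1.93e-37). Neither line had overlapping groups. With the chromosome medians removed the SKM-1 change of MVK was -0.728. MVK overlaps MMAB on the other strand. PMVK, the next kinase, fell in SKM-1 from 25.5 to 15.7 CPM (-0.70 ± 0.07). Its MUTZ-1 levels of 66.2 and 63.9 CPM came from overlapping groups (-0.05 ± 0.05, edgeR adjusted p = 0.444). MVD, which makes isopentenyl diphosphate, fell in both lines (46.3 to 33.7 CPM in MUTZ-1, 119 to 92.2 CPM in SKM-1). Its changes of -0.46 ± 0.05 and -0.37 ± 0.04 gave a difference of -0.09 ± 0.07 (edgeR adjusted p = 0.209). With the chromosome medians removed the SKM-1 change was -0.24.

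At the isoprenoid steps, the genes leading to sterols fell and the gene of the geranylgeranyl branch rose. IDI1, which isomerises isopentenyl diphosphate, fell in MUTZ-1 from 142, 136 and 131 to 90.8, 94.4 and 92.7 CPM (-0.56 ± 0.04). Its fall in SKM-1 was smaller (146 to 133 CPM, -0.13 ± 0.03), with a difference of -0.43 ± 0.05 (edgeR adjusted p = 2.39e-15). The SKM-1 value was -0.21 with library totals alone and -0.27 with the chromosome medians removed. FDPS (chromosome 1, positions 155308748 to 155320666, plus strand) showed the reverse order. Its libraries were at 302, 314 and 297 CPM in control and 276, 264 and 274 CPM in knockdown MUTZ-1 (-0.17 ± 0.03). In SKM-1 they were at 358, 357 and 364 CPM without and 216, 228 and 216 CPM with knockdown (-0.71 ± 0.03, edgeR adjusted p = 1.95e-70). Control and knockdown did not overlap in either line. The annotation names 8 pseudogene copies of FDPS, none of which is in the table, so that its level is uncertain. GGPS1, which makes geranylgeranyl diphosphate for protein prenylation, rose in MUTZ-1 (31.97 to 35.9 CPM) and in SKM-1 (44.8 to 61.01 CPM, 0.45 ± 0.05). Its rise in MUTZ-1 (0.17 ± 0.06, edgeR adjusted p = 0.0135) was lost without MUTZ-1 knockdown replicate 3 (0.16, edgeR adjusted p = 0.0506). GGPS1 overlaps TBCE on its own strand and ARID4B on the other.

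All 3 genes from farnesyl diphosphate to lanosterol fell in both lines. FDFT1 (chromosome 8, positions 11795573 to 11839309, plus strand) was at 420.1, 415 and 401 CPM in control and 302, 317 and 298 CPM in knockdown MUTZ-1. In SKM-1 it was at 476, 464 and 476 CPM without and 296, 286 and 293 CPM with knockdown. The groups did not overlap (-0.43 ± 0.02 and -0.69 ± 0.02, edgeR adjusted p = 2.31e-42 and 1.61e-74). SQLE (chromosome 8, positions 124998497 to 125022283, plus strand), squalene epoxidase, was at 174, 172 and 180.1 CPM in control and 117, 115 and 119.5 CPM in knockdown MUTZ-1. Its SKM-1 libraries were at 300.5, 313 and 306 CPM without and 222, 227 and 213 CPM with knockdown. Again without overlap, it kept 66.9% and 71.99% of its control level. LSS, lanosterol synthase, fell in MUTZ-1 (136 to 98.8 CPM, -0.46 ± 0.03) and in SKM-1 (204 to 181 CPM, -0.17 ± 0.03). It lies on chromosome 21, whose median was 0.49 in SKM-1, and with the chromosome medians removed its change there was -0.63.

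The 8 enzymes after lanosterol held the largest falls among the enzymes in SKM-1. MSMO1 (chromosome 4, positions 165327623 to 165343160, plus strand), a methylsterol oxidase, went in SKM-1 from 112, 118 and 115 to 24.4, 25.8 and 26.7 CPM, which left 22.3% (-2.17 ± 0.05, edgeR adjusted p = 9.19e-106). In MUTZ-1 it went from 66.97, 69.3 and 73.6 to 55.1, 53.9 and 54.5 CPM, which left 77.9% (-0.36 ± 0.05). Control SKM-1 cells had more MSMO1 than MUTZ-1 cells, and knockdown SKM-1 cells had less than either MUTZ-1 group. HSD17B7 (chromosome 1, positions 162790702 to 162812817, plus strand), a sterol ketoreductase, followed the same order. It fell in SKM-1 from 44.6, 46.95 and 46.4 to 14.8, 14.4 and 13.9 CPM (-1.68 ± 0.07). Its MUTZ-1 libraries went from 34.1, 38.2 and 36.99 to 25.2, 24.8 and 21.7 CPM (-0.61 ± 0.07), without overlap in either line. The annotation names 2 pseudogene copies of it, neither in the table. SC5D, the lathosterol desaturase, fell in SKM-1 from 71.8, 71.9 and 70.96 to 34.3, 32.9 and 27.9 CPM (-1.17 ± 0.05). In MUTZ-1 it was at 39.5 and 36.02 CPM (-0.13 ± 0.06, edgeR adjusted p = 0.049). That MUTZ-1 call was lost in 17 of 21 alternatives, 10 of which left out 1 library: any library except MUTZ-1 knockdown replicate 1 and SKM-1 knockdown replicate 3 (edgeR adjusted p up to 0.42).

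NSDHL and EBP, both on the X chromosome, fell by similar amounts in both lines. NSDHL, a sterol dehydrogenase that works after MSMO1, fell in MUTZ-1 (33.2 to 22.2 CPM) and in SKM-1 (65.4 to 47.4 CPM), with log2 fold changes of -0.58 ± 0.07 and -0.47 ± 0.05. EBP went from 83.4 to 72.98 and from 142 to 125 CPM (-0.19 ± 0.04 and -0.18 ± 0.03). The median of the 497 tested genes of the X chromosome was -0.47 in SKM-1. With the chromosome medians removed, NSDHL changed by -0.035 there (edgeR adjusted p = 0.54) and EBP turned to 0.25 (edgeR adjusted p = 1.85e-11).

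The other 3 late enzymes moved little or apart. DHCR7, a reductase of the final steps, fell in MUTZ-1 from 88.5, 92.8 and 90.2 to 68.1, 61.3 and 64.8 CPM without overlap (-0.48 ± 0.04, edgeR adjusted p = 1.07e-24). In SKM-1 it rose from 209.8 ± 2.54 to 234 ± 8.05 CPM (0.16 ± 0.03). That rise was 0.07 with library totals alone and on both log2 FPKM scales (limma adjusted p = 0.078 and 0.0832), and -0.055 with the chromosome medians removed (edgeR adjusted p = 0.0783). TM7SF2 rose in MUTZ-1 (37.9 to 44.8 CPM, 0.24 ± 0.06) and fell in SKM-1 (25.5 to 21.1 CPM, -0.27 ± 0.07, and -0.48 with the chromosome medians removed). It overlaps VPS51 on its own strand. CYP51A1, lanosterol demethylase, was at 68.9 and 63.6 CPM in MUTZ-1 (-0.12 ± 0.04, edgeR adjusted p = 0.0152). That call was lost in 12 of 21 alternatives, among them leaving out MUTZ-1 control replicate 2 or 3, any MUTZ-1 knockdown library, or SKM-1 knockdown replicate 1 or 2 (edgeR adjusted p 0.072 to 0.272). In SKM-1 it was at 157 and 150.4 CPM (-0.06 ± 0.03, edgeR adjusted p = 0.0661), and it passed the test there as lower in most alternatives, at -0.41 with the chromosome medians removed. The annotation names 3 pseudogene copies of CYP51A1, none in the table.

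**Figure D3:**
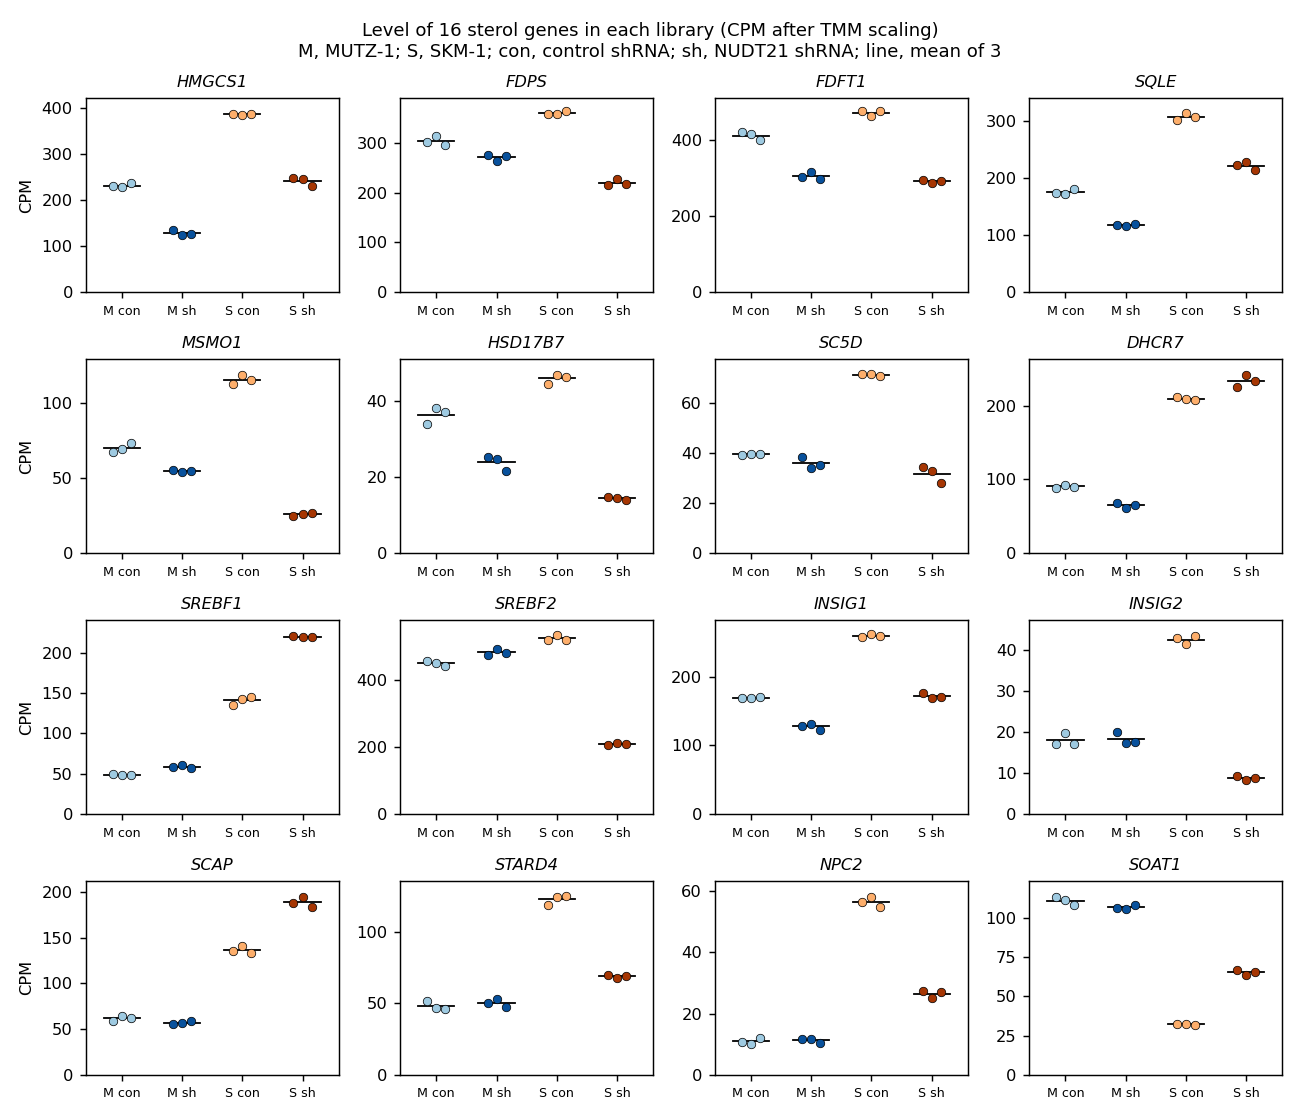
CPM of 16 of the genes in each of the 12 libraries, with a line at the mean of 3. HMGCS1, FDPS, FDFT1, SQLE, MSMO1, HSD17B7, SC5D and INSIG1 are lower after knockdown in both lines without overlap, SC5D only slightly in MUTZ-1. SREBF2 and INSIG2 are lower in SKM-1 but not in MUTZ-1.

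Of the 5 regulators, SREBF1 rose and INSIG1 fell in both lines, and SREBF2, INSIG2 and SCAP moved differently in them. SREBF2 (chromosome 22, positions 41833079 to 41907308, plus strand), which encodes SREBP-2, was at 522, 537 and 519.9 CPM in control SKM-1 and at 206, 212 and 209.7 CPM after knockdown, and 39.8% was left (-1.33 ± 0.02, edgeR adjusted p = 2.23e-124). In MUTZ-1 it was at 458, 453 and 444 CPM in control and at 475, 493 and 483 CPM in knockdown libraries, a small rise without overlap (0.10 ± 0.02, edgeR adjusted p = 5.13e-05). Most enzymes thus fell beside a slightly higher SREBF2 mRNA level in MUTZ-1 and beside a lower one in SKM-1. SREBF1 (chromosome 17, positions 17810399 to 17837002, minus strand), which encodes SREBP-1, rose in both lines without overlap. Its MUTZ-1 libraries went from 48.97, 47.9 and 48.1 to 58.1, 60.01 and 57.4 CPM (0.28 ± 0.05). In SKM-1 they went from 135, 142 and 145 to 220.2, 219.8 and 219 CPM (0.64 ± 0.03). SREBF1 overlaps RAI1 on the other strand.

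Among the genes that gate the SREBPs, INSIG1 (chromosome 7, positions 155297776 to 155310235, plus strand) fell in both lines without overlap. It was at 169.6, 169 and 170.2 CPM in control and 128, 132 and 123 CPM in knockdown MUTZ-1 (-0.41 ± 0.03, edgeR adjusted p = 8.97e-28). In SKM-1 it was at 258, 262 and 259 CPM without and 176, 169 and 170.1 CPM with knockdown (-0.60 ± 0.03, edgeR adjusted p = 2.86e-52). Chromosome 7 had a median of 0.34 in SKM-1, and with the chromosome medians removed INSIG1 changed by -0.94. INSIG2 (chromosome 2, positions 118088452 to 118110997, plus strand), its paralog, had the largest fall of the 28 in SKM-1, from 42.98, 41.5 and 43.4 to 9.21, 8.195 and 8.81 CPM, which left 20.5% (-2.29 ± 0.08, edgeR adjusted p = 4.76e-70). In MUTZ-1 it was at 17.1, 19.7 and 17.1 CPM and at 19.98, 17.4 and 17.6 CPM, with overlapping groups (0.03 ± 0.08, edgeR adjusted p = 0.826). SCAP rose in SKM-1 (136 to 189 CPM, 0.47 ± 0.03). In MUTZ-1 it was at 61.8 and 56.95 CPM (-0.12 ± 0.04, edgeR adjusted p = 0.0198). That call was lost in 12 of 21 alternatives, among them leaving out MUTZ-1 control replicate 2 or 3, any MUTZ-1 knockdown library, or SKM-1 knockdown replicate 1 or 2 (edgeR adjusted p 0.0664 to 0.304).

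Of the 4 transport and storage genes, 2 fell and 1 rose in SKM-1, beside 42.3% and 42.1% of all genes. In MUTZ-1, 1 fell and 0 rose, beside 24.6% and 24.4% of all. STARD4 fell in SKM-1 from 119, 125 and 126 to 69.7, 68.01 and 69.2 CPM (-0.84 ± 0.04), and in MUTZ-1 it stood at 48.3 and 50.4 CPM (edgeR adjusted p = 0.334). Without MUTZ-1 control replicate 1 it passed the test there as higher (0.14, edgeR adjusted p = 0.0335). NPC2 fell in SKM-1 from 56.5, 57.97 and 54.9 to 27.5, 25.1 and 26.9 CPM without overlap (-1.09 ± 0.07), and its MUTZ-1 levels were 10.9 and 11.3 CPM (edgeR adjusted p = 0.737). With the chromosome medians removed the SKM-1 change of NPC2 was -0.855. NPC2 overlaps ISCA2 on the other strand. NPC1, its membrane partner in lysosomal cholesterol exit, fell in MUTZ-1 (53.1 to 46.2 CPM, -0.20 ± 0.05, and -0.13 with log2(FPKM + 1)). In SKM-1 it was at 77.1 and 80.8 CPM with overlapping groups (edgeR adjusted p = 0.131). There it passed the test as higher without SKM-1 control replicate 1 (0.12, edgeR adjusted p = 0.019) and with the chromosome medians removed (0.14, edgeR adjusted p = 0.00219). NPC1 overlaps RMC1 on the other strand. SOAT1 (chromosome 1, positions 179293714 to 179358680, plus strand) rose in SKM-1 from 32.6, 32.7 and 31.9 to 67.05, 63.4 and 65.6 CPM without overlap (1.01 ± 0.05, edgeR adjusted p = 4.75e-51). It was the only one of the 28 that rose at least 2-fold there, and its change was 0.86 with the chromosome medians removed. In MUTZ-1 it was at 111 and 107 CPM (edgeR adjusted p = 0.228).

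Against the median of their own chromosome, 21 of the 28 genes were lower after knockdown in MUTZ-1 and 20 in SKM-1. A median by its definition has as many genes below it as above. The counts take the sign alone and include small values, as for PMVK (-0.067) and SOAT1 (-0.072) in MUTZ-1 and DHCR7 (-0.054) in SKM-1. With the chromosome medians removed, 19 of the 28 fell in SKM-1 (41.9% of all genes then fell) and 6 rose (42% of all). HSD17B7 then changed by -1.83, MSMO1 by -1.81, INSIG2 by -2.07, SC5D by -1.38 and SREBF2 by -1.29. MVK and NPC2, at least 2-fold lower before, then changed by -0.728 and -0.855, less than 2-fold.

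**Figure D4:**
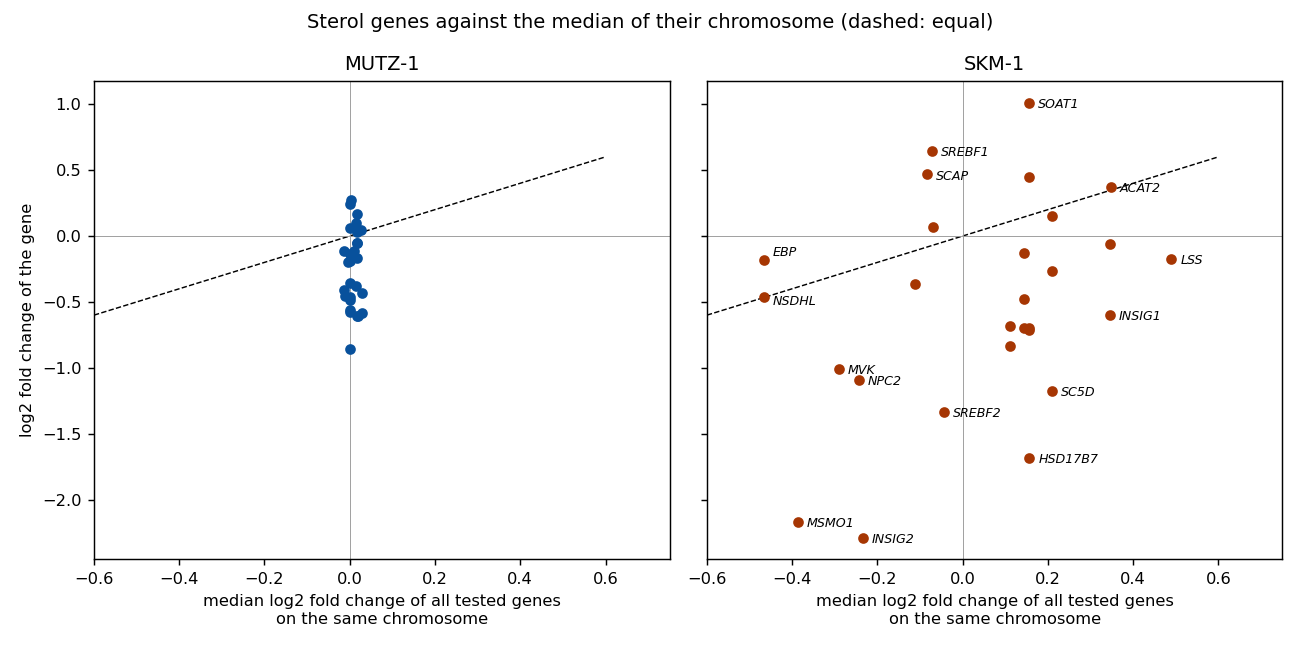
Log2 fold change of each of the 28 genes against the median of all tested genes on its chromosome, for MUTZ-1 and SKM-1, with a dashed line of equality. Medians lie near 0 in MUTZ-1 and spread from -0.47 to 0.49 over the chromosomes of these genes in SKM-1, where MSMO1, INSIG2, HSD17B7 and SREBF2 lie far below the dashed line.

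Between the lines, the change after knockdown differed for 24 of the 28 genes, beside 72% of all genes in either direction. The change was lower in MUTZ-1 for 11 (35.6% of all genes) and lower in SKM-1 for 13 (36.4% of all). The count of 11 was 7 with library totals alone and with log2(FPKM + 0.1). The widest difference was of INSIG2 (2.31 ± 0.12, edgeR adjusted p = 8.25e-48), followed by MSMO1 (1.81 ± 0.07) and SREBF2 (1.43 ± 0.03, edgeR adjusted p = 2.34e-104). For ACAT2 and DHCR7, lower in MUTZ-1 and higher in SKM-1, the differences were -0.98 ± 0.05 and -0.64 ± 0.05, and neither SKM-1 rise passed the test with the chromosome medians removed. For EBP the difference was -0.01 ± 0.05 (edgeR adjusted p = 0.856). With the chromosome medians removed it was -0.44, and that of NSDHL was -0.54 and that of MVD -0.21 (edgeR adjusted p = 3.69e-14, 1.9e-09 and 0.00311).

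Of 15 genes that process or hold SREBPs, 4 fell and 2 rose in MUTZ-1, with a median of -0.05. Of all genes 24.6% fell and 24.4% rose there. SPRING1, a cofactor of SREBP cleavage, fell there (186 to 149.5 CPM) and in SKM-1 (59.1 to 35.9 CPM). In SKM-1, 8 of the 15 fell and 7 rose, beside 42.3% and 42.1% of all genes, with a median of -0.18. SEC24D and SEC23A, coat proteins of vesicles leaving the endoplasmic reticulum, fell (92.4 to 29.1 CPM and 109.6 to 36.7 CPM). MBTPS2, a protease that cuts SREBPs, also fell in SKM-1 (91.4 to 33.8 CPM) and rose in MUTZ-1 (28.7 to 32.7 CPM). RNF145, a ubiquitin ligase, rose in SKM-1 (59.3 to 141 CPM). SEC24C, another coat protein, fell in MUTZ-1 (120.4 to 104 CPM) but was higher after knockdown of SKM-1 (216 to 355 CPM).

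Of 16 genes of fatty acid synthesis and its SREBP-1 control, 6 fell and 3 rose in MUTZ-1 (median 0.04), beside 24.6% and 24.4% of all genes, and 8 fell and 7 rose in SKM-1 (median -0.07), beside 42.3% and 42.1% of all. These counts lie near the background. SCD, stearoyl-CoA desaturase, fell in MUTZ-1 (599 to 376 CPM) and SKM-1 (1609 to 1224 CPM). FASN, fatty acid synthase, fell in MUTZ-1 (518 to 377 CPM) but rose in SKM-1 (1156 to 1612 CPM). In SKM-1 the desaturase gene FADS2 fell (175 to 49.7 CPM) and FADS1 rose (489 to 839 CPM). ME1, malic enzyme, rose there (11.7 to 50.6 CPM), and GPAM, a glycerol phosphate acyltransferase, fell in MUTZ-1 (34.3 to 26.9 CPM) and SKM-1 (75.7 to 28.7 CPM). FADS3 rose in MUTZ-1 (75.3 to 105 CPM) and SKM-1 (53.7 to 116 CPM). FADS2 rose in MUTZ-1 (13.7 to 18.2 CPM), as did the elongase gene ELOVL5 (79.4 to 85.4 CPM), and ACSL4, which activates long-chain fatty acids, fell in SKM-1 (88.4 to 35.9 CPM).

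Of 15 genes of the dolichol, ubiquinone and prenylation branches, 7 fell and 0 rose in MUTZ-1 (median -0.22), beside 24.6% and 24.4% of all genes, while 5 fell and 9 rose in SKM-1 (median 0.51), beside 42.3% and 42.1% of all. PDSS1, which makes the ubiquinone side chain, fell in MUTZ-1 (42.4 to 33.4 CPM) and rose in SKM-1 (26.2 to 38.9 CPM). RCE1, a protease of prenylated proteins, fell in MUTZ-1 (19.4 to 15.5 CPM) while its SKM-1 level rose (13.03 to 21.8 CPM). The ubiquinone gene COQ5 fell in SKM-1 (52.9 to 26.4 CPM) and ICMT, a methyltransferase of prenylated proteins, rose (81.9 to 129.6 CPM). RABGGTA, a geranylgeranyl transferase subunit, and PDSS2, the partner of PDSS1, also fell in SKM-1 (31.04 to 20.3 CPM and 27.3 to 20.3 CPM).

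Of 15 genes of the liver X receptor (LXR) response and sterol export, 12 were tested, and 9 rose and 1 fell in MUTZ-1, beside 24.4% and 24.6% of all genes, with a median of 0.65. Of the 12, 4 were under 5 CPM in both MUTZ-1 groups and 5 in both SKM-1 groups, and those with next to no reads in a line passed the filter through the other line. APOC1 rose in MUTZ-1 at such a level (0.019 to 0.259 CPM). Among the 8 genes above it, 7 rose and 1 fell in MUTZ-1, and among the 7 in SKM-1, 5 rose and 1 fell. The exporter gene ABCG1 rose in MUTZ-1 from 11.9, 10.7 and 11.5 to 67.1, 68.03 and 66.3 CPM (2.56 ± 0.08, edgeR adjusted p = 1.02e-80). ABCA1, another exporter gene, rose in MUTZ-1 from 40.02, 34.5 and 36.99 to 92.5, 97.8 and 92.9 CPM (1.34 ± 0.06). Neither had overlapping groups, and both were under 1 CPM in all SKM-1 libraries. CYP46A1, a cholesterol hydroxylase, rose in MUTZ-1 as well (9.05 to 16.2 CPM). LPCAT3, which remodels membrane phospholipids, fell in MUTZ-1 (48.6 to 44.00 CPM) and rose in SKM-1 (39.6 to 50.1 CPM). In SKM-1, 6 of the 12 rose and 3 fell, beside 42.1% and 42.3% of all genes, with a median of 0.41. At under 2 CPM there, ABCA1 rose (0.167 to 0.658 CPM) and CYP46A1 (0.483 to 0.0199 CPM) and CYP7B1 (1.54 to 0.021 CPM) fell. MYLIP, an LXR-induced ubiquitin ligase, rose in SKM-1 (37.3 to 89.9 CPM) and in MUTZ-1 (19.8 to 29.6 CPM). RXRA, the partner receptor of LXR, fell in SKM-1 (64.1 to 41.3 CPM), and the apolipoprotein gene APOC1 rose (14.1 to 49.2 CPM).

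Among 18 further genes of sterol synthesis, uptake and transport, 15 were tested, of which 8 fell and 4 rose in MUTZ-1 and 6 fell and 8 rose in SKM-1 (medians -0.15 and 0.46). The shares of all genes were 24.6% and 24.4% in MUTZ-1 and 42.3% and 42.1% in SKM-1, near the SKM-1 counts. LIPA, the lysosomal lipase that frees cholesterol from its esters, was at 55.7, 59.3 and 54.99 CPM in control SKM-1 and at 2.13, 2.15 and 0.807 CPM after knockdown (-5.05 ± 0.10, edgeR adjusted p = 1.49e-100). In MUTZ-1 it rose slightly (48.5 to 54.2 CPM). In SKM-1 knockdown cells LIPA and NPC2 were thus lower and SOAT1 higher than in control cells. ERG28, a scaffold of the late enzymes, fell in SKM-1 (43.6 to 22.6 CPM) and in MUTZ-1 (19.9 to 15.3 CPM). STARD5, a sterol carrier, rose in MUTZ-1 (8.82 to 12.7 CPM) and SKM-1 (3.27 to 6.31 CPM).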

How the data were processed

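Whole-number read counts per gene were used as deposited by the authors. Per the submitters' processing notes, fastp, HISAT2, HTSeq and GRCh38 were used. Their versions, the annotation, the strand setting and the handling of multi-mapped reads: not given in the sources used here. FPKM values, deposited by the authors for the same libraries, served for levels per length and for alternatives with a pseudocount of 1 or 0.1. With edgeR 4.0.16 in R 4.3.3, genes were filtered with filterByExpr, scaled by trimmed means of M values (TMM) and tested with the quasi-likelihood test in 1 fit of 12 libraries, with a mean per group and 8 residual degrees of freedom. P-values were adjusted by Benjamini-Hochberg over 13625 genes, and a gene rose or fell at an adjusted p under 0.05. CPM are after TMM scaling, as mean ± SD (n = 3). Each SE was taken as |log2 fold change| over the root of the F statistic. Replicates differed by more than sampling noise (chi-square per degree of freedom 1.66 to 2.25). Positions are from GENCODE 29 (GRCh38), promoters from RefSeq (GRCh38.p14).

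All 28 members are named. From each companion list, the rule names up to 3 called genes per direction and line, with the largest change among those of at least 5 CPM in a group and no overlap between groups. Counts of the lists among genes of at least 5 CPM in a group of the line were added after seeing the data. Some genes picked by the rule are not reported here. Members and lists were chosen with earlier results of these data known. Alternatives were limma 3.58.1 on log2 FPKM, DESeq2 1.42.0, library totals, other filters, a replicate block, fits of the compared groups alone, each library left out, and an offset per chromosome that removes the chromosome's median change in each library.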

Additional observations from a re-analysis of the deposited data

Results flagged for a closer look

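The change after knockdown differed between the lines for 24 of the 28 genes, by edgeR's test of the difference in the fit of all 12 libraries, where 72% of all genes tested differed. Values are the log2 change in MUTZ-1 minus that in SKM-1. Among the enzymes, the change was lower in MUTZ-1 for ACAT2 (-0.98), HMGCS1 (-0.17), IDI1 (-0.43), GGPS1 (-0.28), SQLE (-0.11), LSS (-0.29) and DHCR7 (-0.64). It was lower in SKM-1 for the enzymes MVK (0.63), PMVK (0.65), FDPS (0.54), FDFT1 (0.26), TM7SF2 (0.51), MSMO1 (1.81), HSD17B7 (1.07) and SC5D (1.04). Among regulators and transport genes, MUTZ-1 had the lower change for SREBF1 (-0.37), SCAP (-0.59), NPC1 (-0.27) and SOAT1 (-1.07), and SKM-1 for SREBF2 (1.43), INSIG1 (0.18), INSIG2 (2.31), STARD4 (0.90) and NPC2 (1.14). The calls of 4 of these genes were lost under some of the 20 alternatives. That of SQLE was lost in 15, with a changed sign in 4 of them; 9 of the 15 left out 1 library: any MUTZ-1 library, SKM-1 control replicate 1, or SKM-1 knockdown replicate 1 or 2 (edgeR adjusted p 0.0518 to 0.557). HMGCS1 lost its call in 4, and GGPS1 and NPC1 in 3 each. LSS turned to 0.17 with the chromosome medians removed (edgeR adjusted p = 0.000748). Erythroid and other lineage markers and chromosome medians also changed in SKM-1, as given above.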

How the results depend on the processing

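In every one of the 21 alternatives (20 for the difference of the effects), the counts of called members stayed within 1.5 times the reported ones, except that the members with a lower change in MUTZ-1 than in SKM-1 went from 11 to 7 with library totals alone and with log2(FPKM + 0.1). With each library left out, 16 to 19 members fell in MUTZ-1 and 20 to 21 in SKM-1. The replicate block left 19 and 20 fallen members. Same-numbered libraries did not deviate together (correlations of -0.07 to 0.027), which cannot exclude that they were prepared together. The share of rises among all calls in MUTZ-1 was 49.8%, 60.7% with library totals alone and 61.1% and 61.2% with log2(FPKM + 1) and log2(FPKM + 0.1). Of the values for single genes, 43 changed sign. With the offset per chromosome these were EBP (0.25) and DHCR7 (-0.055) in SKM-1 and the differences between the lines of SQLE (0.02), LSS (0.17) and CYP51A1 (0.30). With library totals alone they were NPC1 in SKM-1 (-0.013) and the differences of MVD (0.037), SQLE (0.023), CYP51A1 (0.076), NSDHL (0.018) and EBP (0.12). With log2(FPKM + 1) they were the same genes, at -0.011, 0.049, 0.028, 0.076, 0.035 and 0.12, and with log2(FPKM + 0.1) at -0.011, 0.037, 0.023, 0.076, 0.02 and 0.12. The stricter filter turned the differences of CYP51A1 (0.024) and EBP (0.062), and DESeq2 that of EBP (0.008). Leaving out single libraries gave ranges of -0.079 to 0.02 for PMVK and -0.013 to 0.12 for INSIG2 in MUTZ-1, and of -0.106 to 0.00 for MVD, -0.065 to 0.022 for CYP51A1 and -0.046 to 0.064 for EBP in the differences. The cause of these changes was not tested. The median of all genes in the difference shifted by 0.13 with library totals alone, where the differences of HMGCS1 (-0.044), GGPS1 (-0.15) and NPC1 (-0.14) lost their calls (edgeR adjusted p = 0.319, 0.0846 and 0.0507). HMGCS1 lost it also with log2(FPKM + 1) (-0.03), log2(FPKM + 0.1) (-0.043) and the chromosome offset (-0.072), GGPS1 with log2(FPKM + 0.1) (-0.15) and the offset (-0.14), and NPC1 on both FPKM scales (-0.12 and -0.14).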
